A study of Mus musculus with 28 samples.

Results

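Chemokines and their receptors were taken as every gene whose single annotated symbol is Ccl, Cxcl, Cx3cl, Ccr, Cxcr, Cx3cr or Ackr followed by a number. This name rule, which uses no measured value, gave 47 of the 17097 genes on the array with 1 symbol: 31 ligands, 13 signalling receptors and 3 atypical receptors. Ackr1, Ccl26, Ccr7, Cxcl3, Cxcr1 and Cxcr4 were not analysed here. The study asked what the oncogenic PI3-kinase mutant PIK3CA-H1047R does to mammary cells of luminal or basal origin. RNA of cells sorted from the digested mammary gland of female mice was hybridised to 28 Affymetrix arrays in 11 groups.

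All mice carried a tamoxifen-inducible Cre and the reporter RosaYFP, and received 3 injections of 5 mg tamoxifen from the age of 4 to 5 weeks. K8CREERT2 acts from the keratin 8 promoter of luminal cells and K5CREERT2 from the keratin 5 promoter of basal cells. Control cells, called YFP here, were YFP+ luminal cells of K8CREERT2/RosaYFP mice and YFP+ basal cells of K5CREERT2/RosaYFP mice, each at 8 weeks and at 10 months after tamoxifen with 2 arrays per group. The oncogene groups were YFP+ cells of both gates, taken at 8 weeks from mice of the genotype K8CREERT2/PIK3CA-H1047R/RosaYFP (K8-PIK) and at 10 months from mice of the genotype K5CREERT2/PIK3CA-H1047R/RosaYFP (K5-PIK), again with 2 arrays each. Tumour cells came from the K5-PIK genotype (3 arrays), the K8-PIK genotype (7 arrays) and K8CREERT2/PIK3CA-H1047R/p53flox/flox/RosaYFP mice (2 arrays, K8-PIK-p53), with no time and no YFP gate in the labels. In 2 comparisons, K8-PIK against YFP basal cells and K5-PIK against YFP luminal cells, the groups carry different Cre drivers besides the oncogene. The same holds within each comparison of lineage differences between oncogene and YFP cells. The YFP basal and YFP luminal groups also come from mice of different Cre drivers, so gate and driver cannot be told apart between them. Driver and origin likewise go together in K5-PIK against K8-PIK tumours. The 2 gates of K8-PIK cells share a driver, as do those of K5-PIK cells. The labels do not say that replicates came from separate mice, so the p-values measure only the spread between these arrays.

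Chemokines are small secreted or membrane-tethered proteins that bind receptors coupled to G proteins and draw leukocytes along a gradient. CXC ligands of the Cxcl1 type attract neutrophils, Ccl2 and Ccl7 attract monocytes, and Cxcl12 holds stem and immune cells in their niches through Cxcr4. Atypical receptors bind chemokines without G protein signalling and remove them: Ackr3 takes up Cxcl12, and Ackr4 takes up Ccl19 and related ligands. Mammary epithelium itself secretes several chemokines, and stromal and immune cells of the gland secrete others.

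Levels are deposited log2 array values, so a difference of 1 is a 2-fold change, and levels of different genes were not set against each other. Differences are given ± SE of the limma fit, and a call means a p under 0.05 after Benjamini-Hochberg adjustment over all genes tested. Where groups of arrays are said not to overlap, this describes the genes named, and the share over all genes is not given. Tests covered genes with values over the dim limit, the 40th percentile of each array (3.89 to 3.99), in 2 or more arrays. Replicate arrays correlated at 0.969 to 0.995 outside the K8-PIK tumours, where the lowest correlation was 0.919. The 6 basal keratin and myoepithelial markers all passed the test as higher in the basal than in the luminal gate of YFP cells at both times, and 6 of 7 luminal markers at 8 weeks and 7 of 7 at 10 months passed as lower. Of 18 immune markers 12 to 14 lay above the dim limit on every array of a group, Cd74 and Tyrobp on all 28 arrays, whereas Ptprc lay above it on 3 arrays, Adgre1 on 4 and Itgam on 0. Pecam1, Cdh5 and other endothelial markers were higher in the YFP basal than in the YFP luminal gate for 8 of 10 genes at 8 weeks and 9 of 10 at 10 months. In these bulk samples fewer cells of a type and less RNA per cell cannot be told apart.

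Ligands were detected far more often than receptors. Of the 47 genes, 36 lay above the dim limit on at least 2 arrays and 9 on none. The 20 that lay above it on every array were ligands, with the exception of Cx3cr1. The signalling receptors Ccr1, Ccr2, Ccr3, Ccr8, Cxcr2, Cxcr3, Cxcr5 and Cxcr6, which leukocytes use to follow chemokines, lay above it on 0 of 28 arrays, as did the monocyte attractant Ccl12. Ccr4, a receptor of T cells, lay above it on 1 array, Ccr6, the receptor of Ccl20, on 3 and Ccr9, the receptor of Ccl25, on 10. Ccr10, the receptor of Ccl28, passed on 27 arrays at 4.08 to 5.15, and Cx3cr1, the receptor of Cx3cl1, passed on all 28 at 3.95 to 4.85, close to the limit. Of the atypical receptors, Ackr2, a scavenger of inflammatory CC ligands, passed on 3 arrays, Ackr4 on 14 and Ackr3 on 17. The interferon-induced ligand Cxcl11 passed on 1 array. A low array value bounds a level for that probe set only and does not show that a receptor is absent.

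Over the 11 groups together, 10 of 36 tested chemokine genes differed (F-test of limma), beside 56.4% of all 13663 genes. They were the ligands Ccl2, Ccl7, Ccl11, Cx3cl1, Cxcl12, Cxcl14, Cxcl15 and Cxcl17 and the atypical receptors Ackr3 and Ackr4. Cxcl12 had the widest range of group means, 5.69, with the highest mean in YFP basal cells at 10 months and the lowest in YFP luminal cells at 10 months. Cx3cl1, a membrane-tethered ligand, had group means between 9.57 in K8-PIK-p53 tumours and 11.04 in K5-PIK basal cells. The ligands Ccl1, Ccl17, Ccl22, Ccl24 and Ccl28 had group means that lay within 0.70 of each other, and none of these 5 was called in any of the comparisons below. Ccl3, Ccl4 and Ccl6, which draw macrophages and T cells, and Cxcl13, which draws B cells, had wider ranges of 1.10 to 1.45 and were not called in any comparison below either.

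The largest and most repeated differences followed lineage. Cxcl12, Cxcl14, Ackr3 and Ackr4 were higher and Cxcl15 and Cxcl17 lower in the basal than in the luminal gate of YFP cells at 8 weeks, of YFP cells at 10 months, of K8-PIK cells and of K5-PIK cells. These 4 comparisons share no array, and in the 2 of YFP cells the Cre driver differs with the gate. The 6 genes make up 17.1% of the 35 chemokine genes tested in sorted cells, while 8.92% of all 13150 genes were called in the same direction in all 4. In YFP cells the count of called genes was not above its background: at 8 weeks 7 of 35 were called (5 higher, 2 lower in basal cells) beside 30.3% of all genes, and at 10 months 9 of 35 (7 higher, 2 lower) beside 43.4%. All 7 genes called at 8 weeks were among the 9 called at 10 months.

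The regions just before the start sites of these genes are shown because the genes moved together by gate. The sequences are the 250 bases upstream of the RefSeq start site in GRCm38.p6, read on the gene's own strand, with matches to TATAAA and GGGCGG on either strand in capitals. Of the 47 genes 35 had an entry, with 37 start sites.
Cxcl12 (chr6:117168285-117168534, plus strand): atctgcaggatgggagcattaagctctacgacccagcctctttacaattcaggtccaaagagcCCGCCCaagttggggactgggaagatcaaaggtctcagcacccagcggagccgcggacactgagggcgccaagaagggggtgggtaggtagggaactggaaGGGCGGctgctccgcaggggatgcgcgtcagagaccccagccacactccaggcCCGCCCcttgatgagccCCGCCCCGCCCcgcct
Cxcl14 (chr13:56296552-56296801, minus strand): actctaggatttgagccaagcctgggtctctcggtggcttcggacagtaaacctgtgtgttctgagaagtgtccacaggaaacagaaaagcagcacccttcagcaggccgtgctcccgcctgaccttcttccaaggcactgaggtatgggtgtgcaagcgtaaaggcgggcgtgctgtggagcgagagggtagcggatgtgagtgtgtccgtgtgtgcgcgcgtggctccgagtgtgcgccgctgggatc
Ackr3 (chr1:90203730-90203979, plus strand): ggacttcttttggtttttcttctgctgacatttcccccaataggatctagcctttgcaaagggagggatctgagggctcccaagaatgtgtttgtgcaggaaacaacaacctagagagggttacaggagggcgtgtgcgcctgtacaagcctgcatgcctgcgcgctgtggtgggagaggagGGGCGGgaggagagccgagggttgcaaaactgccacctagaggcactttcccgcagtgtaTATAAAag
Ackr4 (chr9:104126644-104126893, minus strand): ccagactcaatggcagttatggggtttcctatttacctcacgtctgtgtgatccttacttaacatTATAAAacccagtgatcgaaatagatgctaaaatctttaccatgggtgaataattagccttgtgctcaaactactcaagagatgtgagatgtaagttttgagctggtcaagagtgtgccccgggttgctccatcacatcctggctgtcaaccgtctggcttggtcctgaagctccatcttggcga
Cxcl15 (chr5:90794284-90794533, plus strand): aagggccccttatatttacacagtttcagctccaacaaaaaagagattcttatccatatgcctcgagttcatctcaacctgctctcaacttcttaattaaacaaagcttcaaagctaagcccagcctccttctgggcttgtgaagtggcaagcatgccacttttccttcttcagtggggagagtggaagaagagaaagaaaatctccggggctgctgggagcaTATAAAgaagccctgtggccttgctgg

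The window of Cxcl12 was rich in G and C at 64.4%, beside a median of 52.4% over all 32851 windows, and held 5 matches to GGGCGG, of which a pair overlapped by 1 base. Ackr3 held 1 such match and a TATAAA match ending at position -3. Cxcl15, a luminal gene, held TATAAA at -27 to -22, the usual place of a TATA box, and Ackr4 held it at -185 to -180. Cxcl14 held neither. Over all windows 12.4% held TATAAA and 32.7% GGGCGG on either strand, and over the 37 chemokine windows 10 and 5 did. The 4 basal genes and Cxcl15 thus shared neither motif as a group, and a match describes letters, not a used site.

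Cxcl12, the ligand that retains Cxcr4-bearing cells, read 9.43 and 9.26 in YFP basal cells and 4.13 and 5.79 in YFP luminal cells at 8 weeks. At 10 months it read 10.17 and 10.43 in basal and 4.65 and 4.57 in luminal cells. The arrays of the gates did not overlap at either time, and the basal minus luminal differences were 4.39 ± 0.55 (adjusted p = 0.000158) and 5.69 ± 0.55 (adjusted p = 1.01e-05). K8-PIK basal cells read 9.77 and 9.06 against 6.47 and 4.95 in K8-PIK luminal cells, and K5-PIK basal cells read 9.60 and 9.37 against 5.33 and 4.12 in K5-PIK luminal cells. Again every basal array lay above every luminal array, with differences of 3.71 ± 0.55 in K8-PIK cells and, taken as luminal minus basal, -4.76 ± 0.55 in K5-PIK cells. Both other probe sets of Cxcl12 followed the 1 used, with correlations of 0.959 and 0.923 over the 28 arrays, which share their groups.

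Cxcl14, a chemokine that epithelia secrete constitutively, read 11.21 and 11.12 in YFP basal and 5.58 and 6.97 in YFP luminal cells at 8 weeks, and 11.74 and 11.76 against 6.79 and 7.15 at 10 months. The differences were 4.89 ± 0.52 and 4.78 ± 0.52 (adjusted p = 4.57e-05 and 2.36e-05). In the oncogene groups the basal arrays stayed at 11.13 to 11.52, while the luminal arrays read 9.47 and 7.44 in K8-PIK and 9.33 and 9.00 in K5-PIK cells. The gates therefore lay closer there, at 2.72 ± 0.52 in K8-PIK cells and -2.29 ± 0.52 as luminal minus basal in K5-PIK cells, with no overlap of arrays in either. A test of that change itself, the lineage difference of oncogene cells minus that of YFP cells, gave -2.17 ± 0.73 at 8 weeks (adjusted p = 0.375) and -2.49 ± 0.73 at 10 months (adjusted p = 0.0572), and neither was called. The 10-month value was called after quantile normalization (-2.63, adjusted p = 0.0497) and without K5-PIK luminal replicate 2 (-2.66, adjusted p = 0.0466).

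The scavenger Ackr3 read 4.99 and 5.42 in YFP basal and 3.30 and 3.37 in YFP luminal cells at 8 weeks, and 6.62 and 6.61 against 3.78 and 3.07 at 10 months. The luminal arrays all lay below the dim limit and the basal arrays all above it, with differences of 1.87 ± 0.29 (adjusted p = 0.000596) and 3.19 ± 0.29 (adjusted p = 6.25e-06). Ackr4, the scavenger of Ccl19-type ligands, read 6.43 and 7.57 against 3.23 and 3.85 at 8 weeks and 6.59 and 6.66 against 3.27 and 3.47 at 10 months. It too was below the dim limit on every YFP luminal array, and it differed by 3.46 ± 0.35 and 3.25 ± 0.35 (adjusted p = 3.67e-05 and 2.36e-05). In K8-PIK cells the basal minus luminal differences were 1.47 ± 0.29 for Ackr3 and 2.83 ± 0.35 for Ackr4, and in K5-PIK cells the luminal minus basal differences were -3.11 ± 0.29 and -4.53 ± 0.35. Probe sets annotated to both Ackr4 and its neighbour Acad11 were left out.

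On the luminal side, Cxcl15, a neutrophil-attracting ligand best known from lung epithelium, read 7.92 and 9.68 in YFP luminal and 5.59 and 6.37 in YFP basal cells at 8 weeks. At 10 months it read 9.36 and 9.65 against 4.30 and 5.56. The gates did not overlap, and the basal minus luminal differences were -2.82 ± 0.83 (adjusted p = 0.0220) and -4.57 ± 0.83 (adjusted p = 0.000929). The 8-week call was lost without YFP luminal replicate 2 (-1.94, adjusted p = 0.174) or YFP basal replicate 1 (-2.42, adjusted p = 0.128). Cxcl17, a mucosal chemokine, read 7.95 and 7.22 against 5.19 and 5.31 at 8 weeks and 7.43 and 7.52 against 3.58 and 3.93 at 10 months, with differences of -2.34 ± 0.36 and -3.72 ± 0.36 (adjusted p = 0.000655 and 1.13e-05). In K8-PIK cells both were again lower in the basal gate, at -3.07 ± 0.83 for Cxcl15 and -1.66 ± 0.36 for Cxcl17. In K5-PIK cells both were higher in the luminal gate, at 2.93 ± 0.36 for Cxcl17 and, at the edge of the threshold, 2.44 ± 0.83 for Cxcl15 (adjusted p = 0.0494). K5-PIK luminal replicate 2 carried much of the Cxcl15 value: its level was 8.91 and that of replicate 1 was 5.75, and the difference without replicate 2 was 0.86 (adjusted p = 0.420).

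**Figure D1:**
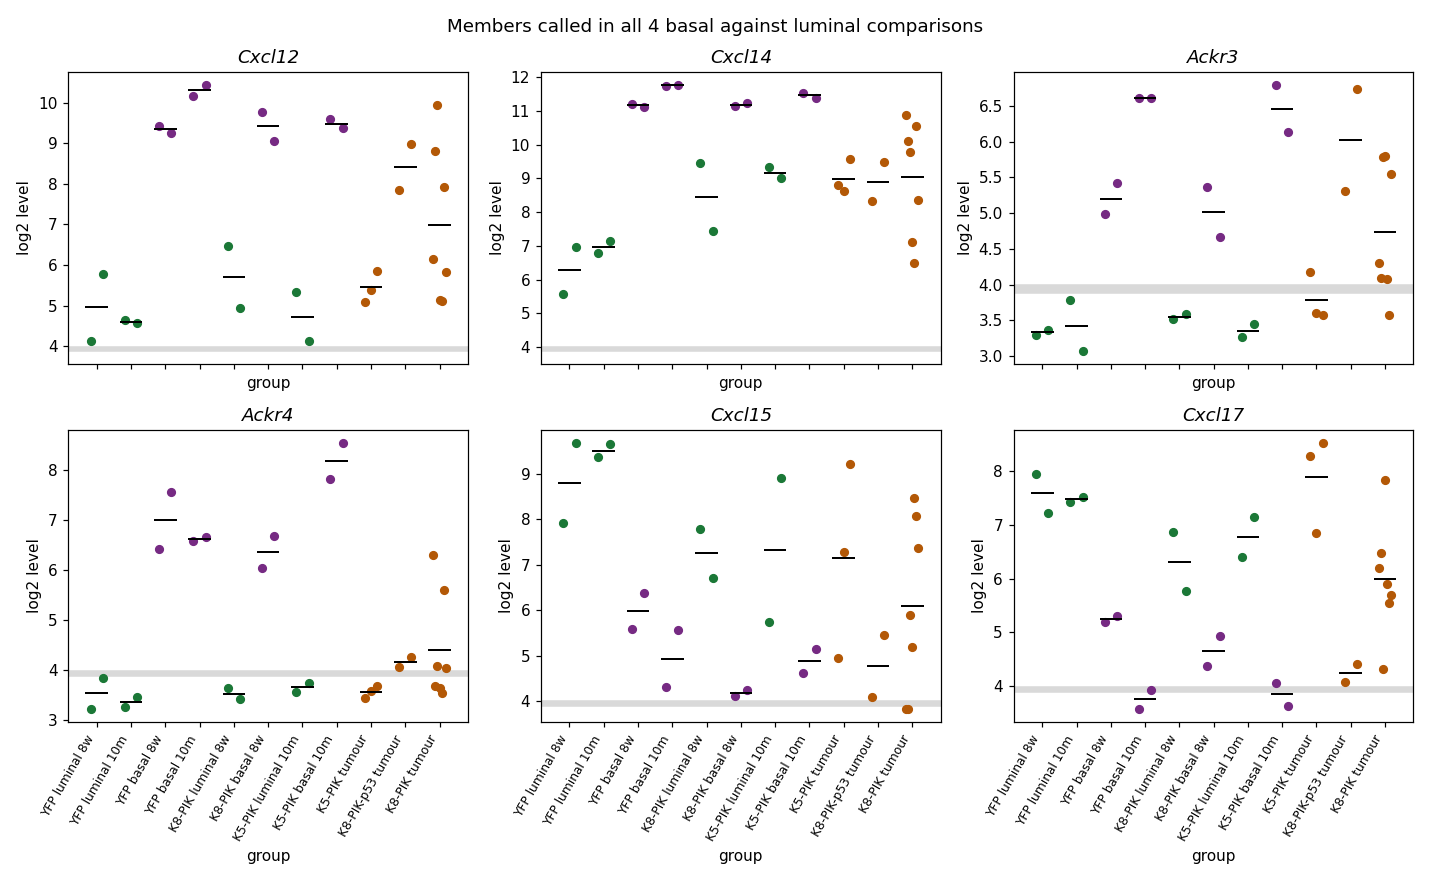
Log2 level (vertical axis) of Cxcl12, Cxcl14, Ackr3, Ackr4, Cxcl15 and Cxcl17 in each of the 11 groups (horizontal axis), with a point per array, a bar at the group mean and the dim limit in grey; luminal gates are green, basal gates purple and tumours brown. The first 4 genes are high in all 4 basal groups, Cxcl15 and Cxcl17 are high in the luminal groups, and the 7 K8-PIK tumours spread between these levels, for Cxcl12 from 5.11 to 9.95.

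The monocyte attractants Ccl2 and Ccl7 were each higher in basal cells in 3 of the 4 lineage comparisons. Ccl8, of the same gene cluster, was called in none of the 4, and Ccl12 was not tested. Ccl2 read 6.74 and 6.76 in YFP basal and 4.74 and 5.42 in YFP luminal cells at 8 weeks, and 7.73 and 7.75 against 5.76 and 5.19 at 10 months, with differences of 1.67 ± 0.27 (adjusted p = 0.000863) and 2.26 ± 0.27 (adjusted p = 5.13e-05). The 8-week call was lost in the fit on all 28 arrays (adjusted p = 0.167). In K8-PIK cells the basal arrays, 6.31 and 6.84, lay above the luminal arrays, 5.65 and 6.09, by 0.70 ± 0.27, which was not called (adjusted p = 0.0922). In K5-PIK cells Ccl2 was lower in the luminal gate by -3.19 ± 0.27 (adjusted p = 6.70e-06), with 5.31 and 4.92 against 8.43 and 8.20. Ccl7, which lies next to Ccl2 in the genome, was called in YFP cells at 10 months (1.11 ± 0.23), in K8-PIK cells (0.99 ± 0.23) and in K5-PIK cells (luminal minus basal -2.99 ± 0.23). In the fit on all 28 arrays the first of these (adjusted p = 0.178) and the second (adjusted p = 0.364) were lost. Ccl11, the eosinophil attractant that follows Ccl7 in that cluster, was called in YFP cells at 10 months (1.41 ± 0.26) and in K5-PIK cells (-0.79 ± 0.26 as luminal minus basal).

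In K8-PIK cells 7 of 35 chemokine genes were called between the gates (5 higher, 2 lower in basal cells), beside 19.5% of all genes. Fitting all 28 arrays together left 2 of them, and leaving out K8-PIK basal replicate 1 left 4. Single arrays decided some of these calls: Ackr3 was lost without basal replicate 1 (adjusted p = 0.0531), Ccl7 without basal replicate 2 or luminal replicate 2, Cxcl17 without basal replicate 1 or luminal replicate 1, and Cxcl15 without either basal array or luminal replicate 1. In K5-PIK cells 12 of 35 were called (4 higher, 8 lower in luminal cells), which is 34.3% beside 23.6% of all genes, and the fit on all 28 arrays left 6. Beyond the genes above, K5-PIK luminal cells had less Ccl19, a lymphoid homing ligand that Ackr4 removes (-1.07 ± 0.17), and more of the tethered ligand Cxcl16 (0.86 ± 0.25) and the neutrophil attractant Cxcl2 (1.24 ± 0.42, adjusted p = 0.0494). The Cxcl2 call rested on K5-PIK basal replicate 2 at 8.85, where replicate 1 read 10.48 and the luminal arrays 11.17 and 10.64. Without that array the difference was 0.42 (adjusted p = 0.454), and the call was also lost without either luminal array. The Cxcl16 call was lost without either basal array or luminal replicate 1 (adjusted p of 0.0671 to 0.200), the Ccl11 call without basal replicate 1 or luminal replicate 2, and the Cxcl15 call without either basal array.

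Endothelial and pericyte markers moved with the normal lineage difference at both times, while fibroblast and immune markers were called less often. Pericyte markers were higher in YFP basal cells for 2 of 3 tested genes at both times, with list means of 6.04 to 6.86 against 4.70 to 5.51 at 8 weeks. Fibroblast list means were 6.10 to 6.61 against 5.20 to 6.25 at 8 weeks, which overlap, and 0 of 6 tested genes were called. At 10 months 1 of the 6 was higher and 1 lower. Of 15 tested immune markers 0 were higher and 1 lower in basal cells at 8 weeks, and 4 were higher and 1 lower at 10 months. The endothelial list mean was 6.45 to 7.31 in YFP basal and 4.83 to 5.82 in YFP luminal cells at 8 weeks, and 6.20 to 7.14 against 4.96 to 5.03 at 10 months. In the oncogene cells the list lay closer between gates. It was 5.81 to 5.94 in basal against 4.99 to 5.70 in luminal K8-PIK cells. In K5-PIK cells it was 4.59 to 5.57 in basal against 4.55 to 5.14 in luminal cells. With the endothelial list mean as a covariate Cxcl12, Cxcl14, Ackr3, Ackr4 and Cxcl17 kept their calls in both YFP comparisons. Under that covariate Cxcl15 lost its 8-week call (-3.51, adjusted p = 0.0930), and Ccl7 (0.87, adjusted p = 0.101) and Ccl11 (0.60, adjusted p = 0.115) lost theirs at 10 months. The endothelial list mean itself moved with the gate, and no fit used the pericyte list. The part of these cell types in any of these values was not tested.

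In luminal cells 8 weeks after K8-targeted activation of PIK3CA-H1047R no chemokine gene passed the threshold. Of 35 tested, 0 were called in K8-PIK against YFP luminal cells by limma, beside 0.350% of all genes. An unadjusted p under 0.05 was found for 3 of the 35, beside 1441 of all 13150 genes. Those 3 were Cxcl14, at 9.47 and 7.44 against 5.58 and 6.97 (2.18 ± 0.52, adjusted p = 0.117), Cxcl17, at 6.86 and 5.76 against 7.95 and 7.22 (-1.27 ± 0.36, adjusted p = 0.189), and Ccl2 (0.79 ± 0.27, adjusted p = 0.281). The arrays of both groups did not overlap for any of the 3, which were picked by a test on the same arrays. Without K8-PIK luminal replicate 2 Cxcl14 was called (3.20, adjusted p = 0.00727), the 1 gene that was.

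K8-PIK basal cells, which arise in mice whose Cre acts in luminal cells, showed no called difference from YFP basal cells either. The count was 0 of 35, beside 0.418% of all genes. By limma 5 of the 35 had an unadjusted p under 0.05, beside 1834 of all 13150 genes. Cxcl12 read 9.77 and 9.06 there against 9.43 and 9.26 in YFP basal cells, and Cxcl14 read 11.13 and 11.22 against 11.21 and 11.12. Cxcl15 was at 4.12 and 4.24 against 5.59 and 6.37, a difference of -1.80 ± 0.83 that was not called (adjusted p = 0.358). The Cre drivers of these groups differ, and a p above the threshold does not show equal levels. The lineage difference of K8-PIK cells minus that of YFP cells at 8 weeks was called for 0 of 35 genes, beside 0.00760% of all genes. By limma 3 of the 35 had an unadjusted p under 0.05, beside 1275 of all 13150 genes.

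In basal cells 10 months after K5-targeted activation, 4 of 35 chemokine genes were called against YFP basal cells (3 higher, 1 lower), beside 16.3% of all genes. Ccl7, the monocyte attractant, rose from 5.03 and 5.10 to 7.07 and 6.47 (1.70 ± 0.23, adjusted p = 0.00204). Ackr4 rose from 6.59 and 6.66 to 7.83 and 8.54 (1.56 ± 0.35, adjusted p = 0.0128), and Ccl19, a ligand that Ackr4 removes, from 4.70 and 4.92 to 5.33 and 5.47 (0.59 ± 0.17, adjusted p = 0.0338). For none of these did the arrays of the groups overlap, and they were picked by a test on the same arrays. Ccl2, the neighbour of Ccl7, was at 8.43 and 8.20 against 7.73 and 7.75 and was not called.

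The gene that fell was Cxcl1, a neutrophil attractant that binds Cxcr2, from 10.16 and 10.29 to 9.14 and 8.09 (-1.61 ± 0.37, adjusted p = 0.0146). Its neighbour Cxcl2 read 10.48 and 8.85 against 10.85 and 10.86, a difference of -1.19 ± 0.42 that was not called (adjusted p = 0.0696) but was without K5-PIK basal replicate 1 (adjusted p = 0.00640), when the array at 8.85 stood alone. In both genes K5-PIK basal replicate 2 was the lowest array of its group, and without it Cxcl1 differed by -1.09 (adjusted p = 0.147). The windows before both start sites are shown because they hold the same 11 letters, a match to the NF-kB consensus on both strands. Capitals mark that match, and GGGCGG in Cxcl2.
Cxcl1 (chr5:90890995-90891244, plus strand): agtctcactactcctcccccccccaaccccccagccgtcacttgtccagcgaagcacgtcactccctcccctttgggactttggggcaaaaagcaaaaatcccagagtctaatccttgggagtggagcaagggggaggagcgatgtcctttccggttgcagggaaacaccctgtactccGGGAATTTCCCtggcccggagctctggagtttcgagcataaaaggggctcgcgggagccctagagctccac
Cxcl2 (chr5:90903649-90903898, plus strand): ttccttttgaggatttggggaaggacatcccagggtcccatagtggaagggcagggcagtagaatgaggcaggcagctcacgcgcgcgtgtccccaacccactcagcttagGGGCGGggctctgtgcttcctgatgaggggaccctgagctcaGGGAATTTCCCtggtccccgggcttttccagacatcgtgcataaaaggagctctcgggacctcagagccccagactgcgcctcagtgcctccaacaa

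The NF-kB consensus on either strand was found in 10 of the 37 chemokine windows and in 7.25% of all windows of that length. Besides Cxcl1 and Cxcl2 it was present in the ligands Cxcl10, Ccl20, Ccl1 and Ccl9 and in the receptors Ackr2, Ccr1, Ccr3 and Ccr6. The AP-1 motif TGANTCA was found in 4 windows, beside 6.75% of all, and the p53-family half-site in 4, beside 7.13%. Of the 22 NF-kB and acute inflammatory genes listed for this comparison, 20 were tested: 4 were lower and none higher in K5-PIK basal cells, a share of the list near the 16.3% of all genes called. They were Relb, a subunit of the non-canonical NF-kB dimer (-0.90), Tnfaip3, an inhibitor that NF-kB itself induces (-1.25), the cytokine Il6 (-2.74) and the macrophage growth factor Csf1 (-1.19). The median difference of the 20 was -0.29, beside 0.09 over all genes.

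The endothelial list fell in the same comparison, with 6 of 10 genes lower in K5-PIK basal cells and list means of 4.59 to 5.57 against 6.20 to 7.14. With its mean as a covariate 2 chemokine genes were called, 1 of them among the 4 above: Ccl7 kept its call, while Cxcl1 (-1.50, adjusted p = 0.152), Ackr4 (1.90, adjusted p = 0.0695) and Ccl19 (0.79, adjusted p = 0.0943) did not. No chemokine gene was called in the fit on all 28 arrays, where Ccl7 had an adjusted p of 0.0917. Without YFP basal replicate 1, YFP basal replicate 2 or K5-PIK basal replicate 2, Ccl7 alone of the 4 kept its call. Leaving out YFP basal replicate 2 gave differences of 1.60 for Ackr4, 0.70 for Ccl19 and -1.55 for Cxcl1.

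The lineage difference at 10 months differed between K5-PIK and YFP cells for 2 of 35 chemokine genes, beside 7.15% of all genes: it was wider in K5-PIK cells by 1.88 ± 0.33 for Ccl7 (adjusted p = 0.0116) and by 0.86 ± 0.24 for Ccl19 (adjusted p = 0.0491). Ccl7 read 3.74 and 3.82 in K5-PIK luminal and 3.90 and 4.00 in YFP luminal cells, near the dim limit, and the change in basal cells is given above. The call of Ccl7 was lost without YFP basal replicate 1 (adjusted p = 0.0581) or YFP luminal replicate 2 (adjusted p = 0.0636), and that of Ccl19 without any 1 of the 8 arrays (adjusted p of 0.0552 to 0.188). The fit on all 28 arrays called neither. K5-PIK luminal cells, which arise where Cre acts in basal cells, differed from YFP luminal cells in 1 of 35 genes, beside 6.40% of all genes. That gene was Cxcl14, at 9.33 and 9.00 against 6.79 and 7.15 (2.19 ± 0.52, adjusted p = 0.0272). The call was lost without either YFP luminal array (adjusted p = 0.181 and 0.126) or without K5-PIK luminal replicate 1 (adjusted p = 0.113), and in the fit on all 28 arrays (adjusted p = 0.354). In these cells 4 of 6 basal markers were also higher than in YFP luminal cells, with list means of 7.98 to 8.08 against 6.29 to 6.59.

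Age moved a single chemokine gene. Between 8 weeks and 10 months 1 of 35 was called in YFP basal cells, beside 1.27% of all genes: Ackr3 rose from 4.99 and 5.42 to 6.62 and 6.61 (1.41 ± 0.29, adjusted p = 0.0376). The call was lost without any 1 of the 4 arrays, at adjusted p of 0.101 to 0.302, and in the fit on all 28 arrays (adjusted p = 0.377). Cxcl17 read 5.19 and 5.31 at 8 weeks and 3.58 and 3.93 at 10 months (-1.50 ± 0.36, adjusted p = 0.0613), and Ccl2 6.74 and 6.76 against 7.73 and 7.75 (0.99 ± 0.27, adjusted p = 0.0848). Neither was called. In YFP luminal cells 0 of 35 were called by limma, beside 0.0608% of all genes. An unadjusted p under 0.05 was found for 2 of the 35, Cxcl1 and Ccl20, beside 1227 of all 13150 genes.

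**Figure D2:**
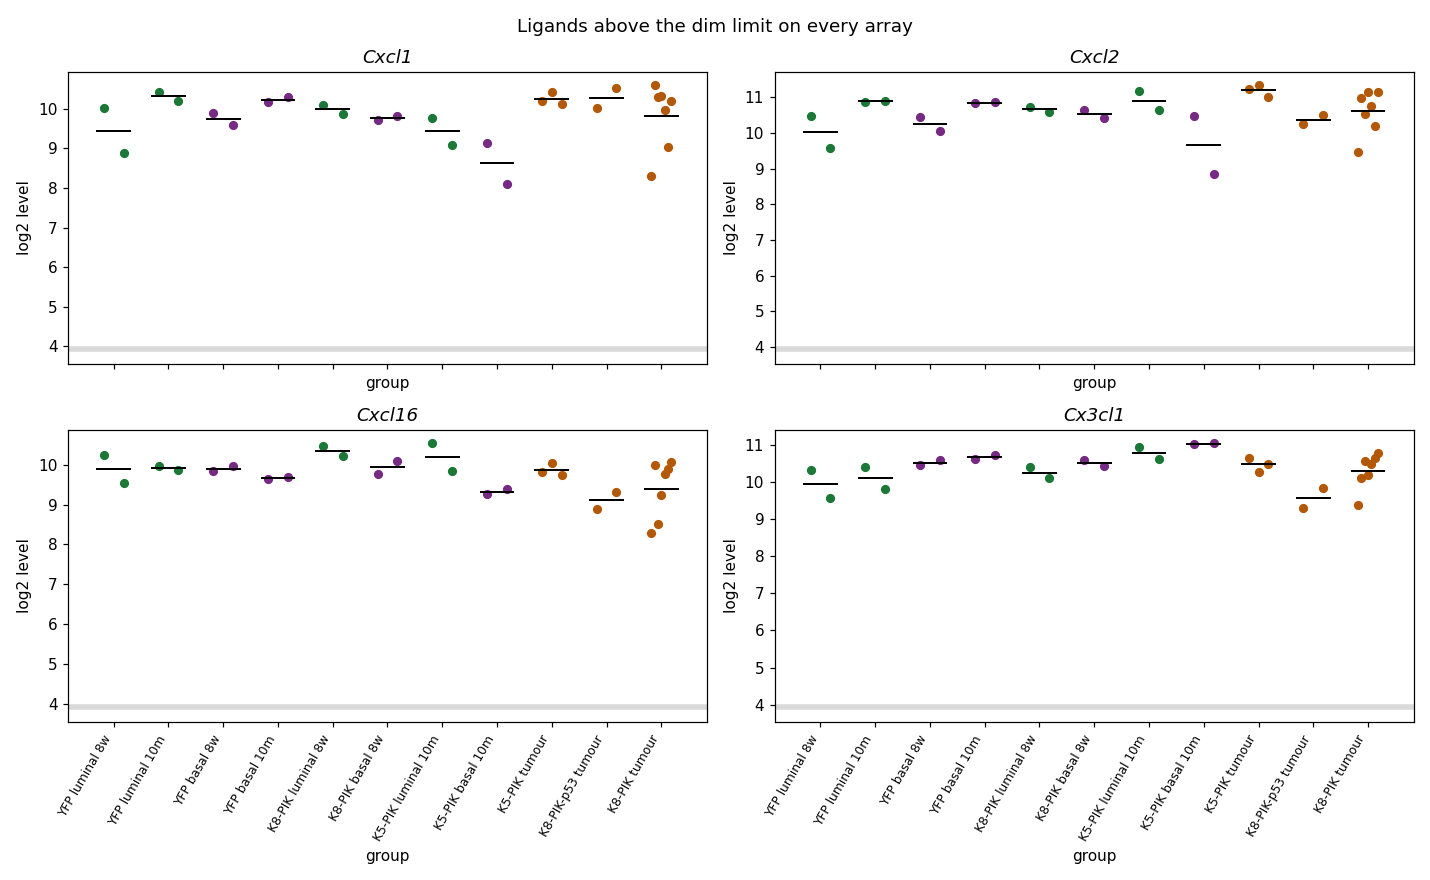
Log2 level (vertical axis) of the neutrophil attractants Cxcl1 and Cxcl2 and of the tethered ligands Cxcl16 and Cx3cl1 in the 11 groups (horizontal axis), with a point per array, a bar at the group mean and the dim limit in grey. All 4 lie far above the limit on all 28 arrays, and K5-PIK basal replicate 2 is low for Cxcl1 (8.09) and Cxcl2 (8.85).

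Tumours of the 3 genotypes were compared with each other first. Between K5-PIK and K8-PIK tumours 0 of 34 chemokine genes were called by limma, beside 0% of all 13244 genes. An unadjusted p under 0.05 was found for 1 of the 34, beside 1225 of all genes. That gene was Cxcl17, at 8.28, 6.85 and 8.52 in K5-PIK tumours and from 4.32 to 7.83 with a median of 5.89 in K8-PIK tumours (1.89 ± 0.59, adjusted p = 0.479), and the groups overlapped. Between K8-PIK-p53 and K8-PIK tumours 0 of 34 were called, beside 0.325% of all genes. By limma 5 of the 34 had an unadjusted p under 0.05, beside 2615 of all 13244 genes. Ccl2 was among the 5, at 9.08 and 9.43 against 4.91 to 8.60 with a median of 6.09 (2.75 ± 0.84, adjusted p = 0.132), with no overlap. Ccl7 read 6.67 and 8.09 against 3.58 to 6.69 with a median of 4.28 (2.74 ± 0.62, adjusted p = 0.0897), and K8-PIK tumour replicate 2 overlapped. In the fit on all 28 arrays both were called, at adjusted p of 0.0173 and 0.00352, and Ccl7 was also called without K8-PIK tumour replicate 2 or replicate 3.

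Against normal luminal cells, the mean of the YFP luminal groups of both times, K8-PIK tumours differed in 5 of 36 chemokine genes (3 higher, 2 lower), beside 10.6% of all 13663 genes. Cxcl14 ran from 6.50 to 10.89 with a median of 9.78 in the tumours and from 5.58 to 7.15 in the 4 normal arrays, a difference of 2.42 ± 0.66 (adjusted p = 0.0238). Ackr3 ran from 3.57 to 5.80 with a median of 4.31 against 3.07 to 3.78 (1.36 ± 0.38, adjusted p = 0.0275). Ccl8, a monocyte attractant of the Ccl2 cluster, ran from 4.10 to 6.33 with a median of 4.80 against 3.91 to 4.09 (0.94 ± 0.29, adjusted p = 0.0452). Only Ccl8 of the 5 had no overlap between tumours and normal cells, by a narrow margin of 4.10 against 4.09. Its call was kept in 8 of 19 alternative fits. It was lost without the dim filter (limma, adjusted p = 0.0552), after quantile normalization (adjusted p = 0.0513) and with the immune (adjusted p = 0.132) or fibroblast (adjusted p = 0.291) covariate. Leaving out any 1 of the 4 normal arrays or tumour replicate 1, 3 or 6 also lost it.

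The luminal ligands were lower in these tumours. Cxcl15 ran from 3.83 to 8.47 with a median of 5.89 against 7.92 to 9.68 in normal luminal cells (-3.06 ± 0.89, adjusted p = 0.0326), and Cxcl17 from 4.32 to 7.83 with a median of 5.89 against 7.22 to 7.95 (-1.54 ± 0.44, adjusted p = 0.0315). Cxcl12 ran from 5.11 to 9.95 with a median of 6.16 against 4.13 to 5.79 and was not called (2.21 ± 0.72, adjusted p = 0.0546). It was called with the mean of all its probe sets (1.75, adjusted p = 0.0412), with the endothelial covariate (2.29, adjusted p = 0.0319) and without tumour replicate 4, 5 or 7 (adjusted p of 0.0231 to 0.0454). K8-PIK tumour replicates 2, 3 and 6 read 8.82, 9.95 and 7.93, well above every normal luminal array. Replicates 1 and 7 at 6.16 and 5.82 lay just above the highest of these, and replicates 4 and 5 at 5.15 and 5.11 lay within their range.

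The count of 5 moved with the arrays and the covariates used. Leaving out YFP luminal 8-week replicate 1 or either 10-month replicate left 0, YFP luminal 8-week replicate 2 left 1, K8-PIK tumour replicate 1 left 3, and leaving out K8-PIK tumour replicate 5 gave 8. The fibroblast list mean as a covariate left 0 and the immune list mean 1. The fibroblast list had means of 4.98 to 8.46 in K8-PIK tumours against 5.20 to 6.25 in normal luminal cells. Of its 7 tested genes 2 were called higher and 0 lower. The immune list had means of 4.55 to 6.45 against 4.50 to 5.25. Of 6 basal markers 5 were higher in the tumours, with list means of 7.33 to 10.64 against 6.29 to 7.67, beside the rises of the basal-gate genes Cxcl14 and Ackr3. The part of these markers in the results was not tested.

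The K8-PIK-p53 tumours differed from normal luminal cells in 10 of 36 chemokine genes (8 higher, 2 lower), beside 24.0% of all genes. The normal luminal arrays are those of the preceding comparison, so the results for both tumour types are not independent. Ccl2, at 9.08 and 9.43 against 4.74 to 5.76, and Ccl7, at 6.67 and 8.09 against 3.74 to 4.14, were higher by 3.98 ± 0.71 (adjusted p = 0.000864) and 3.44 ± 0.53 (adjusted p = 0.000291). Cxcl12 was at 7.86 and 8.98 against 4.13 to 5.79 (3.64 ± 1.00, adjusted p = 0.0128), and Ackr3 at 5.32 and 6.74 against 3.07 to 3.78 (2.65 ± 0.53, adjusted p = 0.00180). The arrays of tumours and normal cells did not overlap for any of the 10, which were picked by a test on the same arrays.

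Smaller rises were called for Cxcl5, a ligand of Cxcr2 (1.92 ± 0.62), for the macrophage-attracting Ccl9 (1.55 ± 0.56, adjusted p = 0.0497), for Ccl8 (1.22 ± 0.41) and for Ccl25, the ligand of Ccr9 (0.84 ± 0.28). Cxcl5 read 5.66 and 5.72 in these tumours and 3.32 to 4.04 in normal luminal cells, around the dim limit. Cxcl15, at 4.09 and 5.46, and Cxcl17, at 4.07 and 4.41, were lower by -4.38 ± 1.23 (adjusted p = 0.0148) and -3.28 ± 0.61 (adjusted p = 0.00118). The interferon-induced ligand Cxcl10 differed widely between the tumours, at 5.95 and 9.51, and was not called. Ccl7 and Cxcl17 kept their calls in all 14 alternative fits.

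Fibroblast markers were higher in the same tumours, with 4 of 7 tested genes called and list means of 7.78 to 8.36 against 5.20 to 6.25 in normal luminal cells. With the list mean as a covariate 2 of the 10 calls were left, Ccl7 (2.09 at the lowest of all alternatives) and Cxcl17. Cxcl12 fell to 0.88 (adjusted p = 0.640) and Ccl2 to 1.86 (adjusted p = 0.0759) under it. Immune markers were higher for 4 of 17 genes, with list means of 5.44 to 5.87 against 4.50 to 5.25, and that mean as a covariate left 4 calls. Of 7 luminal markers 4 were lower in the tumours, with list means of 8.44 to 9.21 against 10.39 to 10.49, and of 6 basal markers 3 were higher, with 7.90 to 8.65 against 6.29 to 7.67. The part of these cells in the values was not tested. Leaving out a single array gave 5 to 7 calls: 5 without K8-PIK-p53 tumour replicate 2, and 6 without replicate 1, without either YFP luminal 8-week array or without YFP luminal 10-month replicate 2. Leaving out a tumour leaves 1 array in its group, whose spread is then taken from the other groups. Without replicate 2 Cxcl12 (3.08, adjusted p = 0.119) and Ackr3 (1.94, adjusted p = 0.0524) were lost, and without replicate 1 Cxcl15 (-3.69, adjusted p = 0.148). Cxcl5, Ccl8 and Ccl9 were lost without either tumour array and Ccl25 without replicate 1, and each of these 4 was also lost without at least 1 of the normal arrays.

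**Figure D3:**
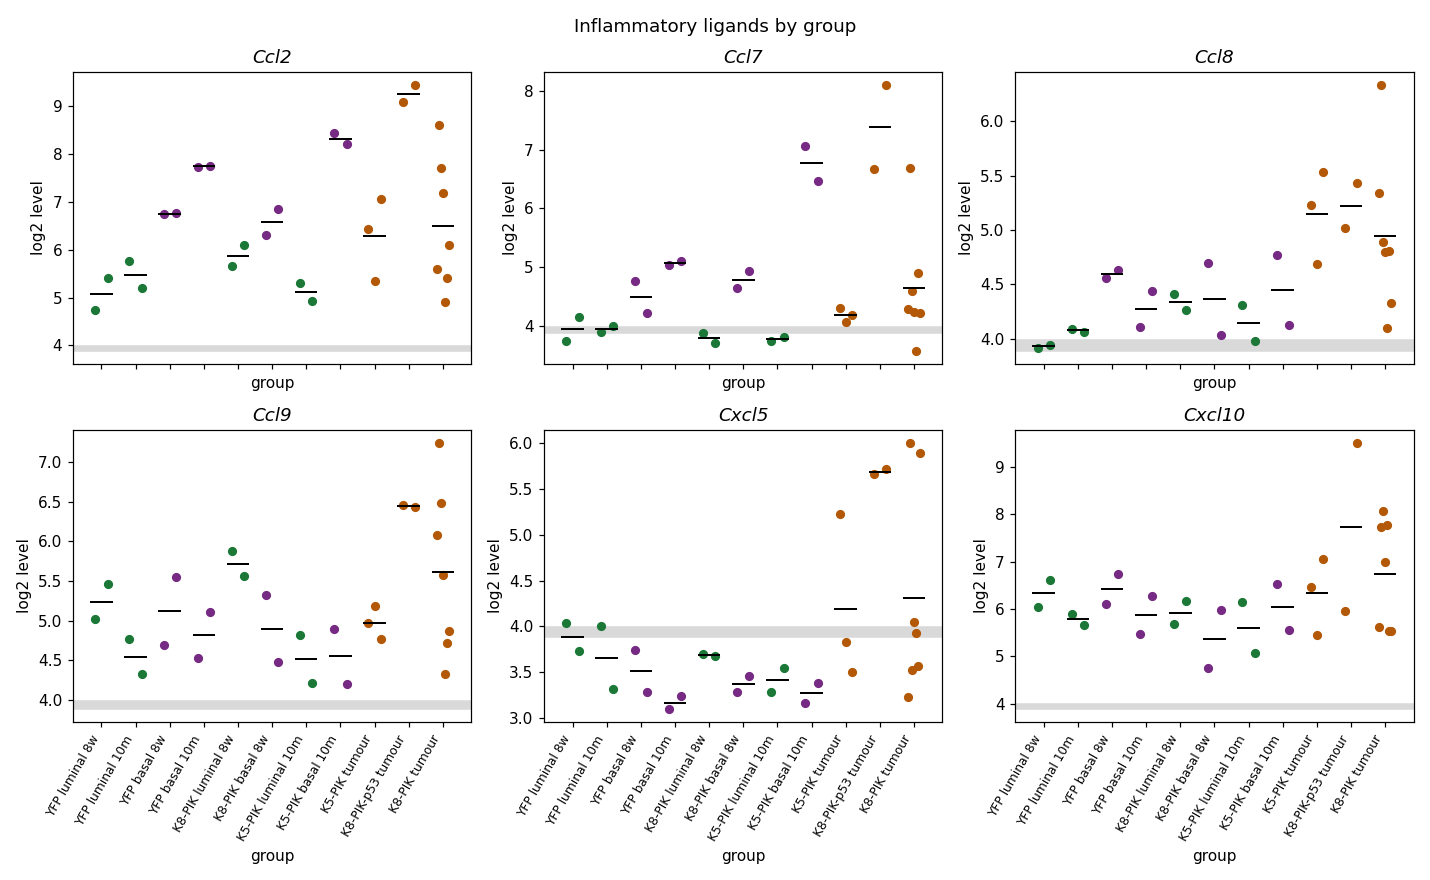
Log2 level (vertical axis) of Ccl2, Ccl7, Ccl8, Ccl9, Cxcl5 and Cxcl10 in the 11 groups (horizontal axis), with a point per array, a bar at the group mean and the dim limit in grey. By group mean Ccl2 and Ccl7 are highest in the 2 K8-PIK-p53 tumours and next in K5-PIK basal cells, and single K8-PIK tumours reach the levels of the K8-PIK-p53 tumours for Ccl7 (6.69), Ccl9 (7.24) and Cxcl5 (6.00).

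Against normal basal cells, the mean of the YFP basal groups of both times, K5-PIK tumours differed in 6 of 36 chemokine genes (1 higher, 5 lower), beside 30.0% of all genes. Of the 7 genes higher in the normal basal gate at 10 months 4 were lower in the tumours, and Ccl2, Ccl7 and Ccl11 were not called. Cxcl12 read 5.09, 5.40 and 5.86 in the tumours and 9.26 to 10.43 in the 4 normal basal arrays (-4.37 ± 0.88, adjusted p = 0.000965). Ackr4 read 3.44, 3.59 and 3.69 against 6.43 to 7.57 (-3.24 ± 0.50, adjusted p = 0.000127), below the dim limit in all 3 tumours. Ackr3 read 4.17, 3.61 and 3.58 against 4.99 to 6.62 (-2.12 ± 0.47, adjusted p = 0.00193), and Cxcl14 read 8.80, 8.62 and 9.56 against 11.12 to 11.76 (-2.47 ± 0.81, adjusted p = 0.0256).

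The luminal ligand Cxcl17 rose in these tumours of basal-targeted mice, to 8.28, 6.85 and 8.52 from 3.58 to 5.31 (3.38 ± 0.54, adjusted p = 0.000159). Cxcl9, an interferon-induced ligand of Cxcr3, read 4.09, 3.67 and 3.69 against 4.77 to 6.19 (-1.60 ± 0.55, adjusted p = 0.0320). No tumour array overlapped the normal basal arrays for any of the 6, which were picked by a test on the same arrays. The Cxcl14 call was lost without tumour replicate 1 or 2, without YFP basal 8-week replicate 1 or without either 10-month array (adjusted p of 0.0533 to 0.0804). The Cxcl9 call was lost without any 1 of the 3 tumours or without replicate 2 of either normal group (adjusted p of 0.0535 to 0.128). Endothelial markers were lower for 6 of 10 genes in the tumours, with list means of 5.31 to 5.82 against 6.20 to 7.31. With that mean as a covariate Ackr3, Ackr4 and Cxcl17 kept their calls, and Cxcl12 (-3.00, adjusted p = 0.0562), Cxcl14 (-0.67, adjusted p = 0.637) and Cxcl9 (-0.65, adjusted p = 0.533) did not. In these tumours 3 of 6 basal markers were lower and 5 of 7 luminal markers higher than in normal basal cells.

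Relative to the normal cells targeted by Cre, the changes of the lineage genes differed between the tumours of both origins. The difference between the changes, K5-PIK tumour minus normal basal against K8-PIK tumour minus normal luminal, was called for 6 of 36 chemokine genes (2 higher, 4 lower), beside 24.1% of all genes. It was -6.58 ± 1.14 for Cxcl12, -4.88 ± 1.04 for Cxcl14, -4.20 ± 0.65 for Ackr4 and -3.49 ± 0.60 for Ackr3, with adjusted p of 0.000436, 0.00212, 0.000179 and 0.000444. It was 4.92 ± 0.70 for Cxcl17 (adjusted p = 9.41e-05) and 4.76 ± 1.41 for Cxcl15 (adjusted p = 0.0179). The normal basal against luminal difference, already described, enters this value in full, and the tumours of both origins did not differ from each other by the test. Cxcl12, Cxcl14, Ackr3, Ackr4 and Cxcl17 kept this call in all 26 alternative fits. The call of Cxcl15 was lost without K5-PIK tumour replicate 3 (3.73, adjusted p = 0.0712), whose level of 9.21 stood above 4.95 and 7.29 in the other tumours, and under the endothelial covariate (4.48, adjusted p = 0.0777).

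**Figure D4:**
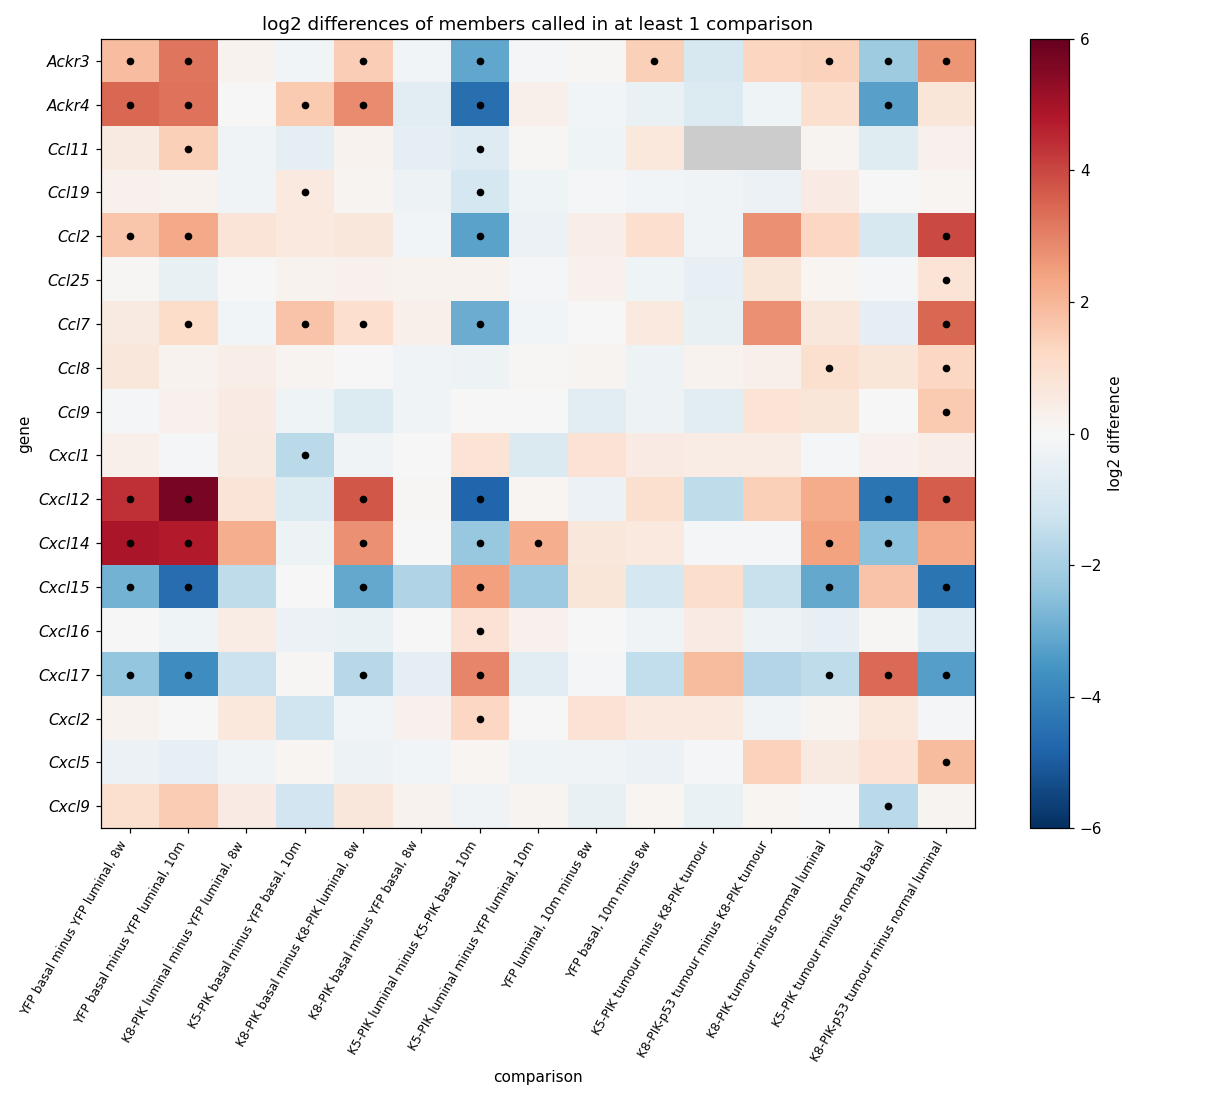
Log2 difference (colour, red higher and blue lower in the group named first) of the chemokine genes called in at least 1 of the 15 comparisons (rows) in each comparison (columns), where dots mark calls at an adjusted p under 0.05 and grey marks a gene not tested. Cxcl12, Cxcl14, Ackr3, Ackr4, Cxcl15 and Cxcl17 carry dots in all 4 lineage columns, and other genes, such as Ccl2 and Ccl7, carry dots in fewer of them. Ccl2, Cxcl12 and Ccl7 carry the largest rises of K8-PIK-p53 tumours against normal luminal cells (3.98, 3.64 and 3.44). Columns that share control arrays are not independent.

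The K8-PIK tumours varied among themselves, with correlations between arrays of 0.919 to 0.982. The spread of this group was not tested against that of the others. Replicate 2 was the highest array of its group for Ccl5, which draws T cells (8.62, next highest 7.08), for Ccl20, the ligand of Ccr6 (7.59, next highest 4.70), and for Cxcl13, which draws B cells (8.69, next highest 6.31). It was also the highest for Ccl7 (6.69, next highest 4.91), Ccl19 (7.03, next highest 5.38) and Ccl11 (4.32, next highest 3.23). These 6 genes were picked from the 36 tested because 1 array stood apart by Dixon's test, so they are not an independent check on the marker lists. The same tumour had the highest immune (6.45), fibroblast (8.46) and pericyte (7.76) list means of the 7, and their part in these values was not tested. Ackr4 stood out instead in replicates 1 and 6, at 6.30 and 5.61 against 3.54 to 4.08 in the other tumours, and the basal list mean was highest in the same tumours, at 10.64 and 10.33.

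**Figure D5:**
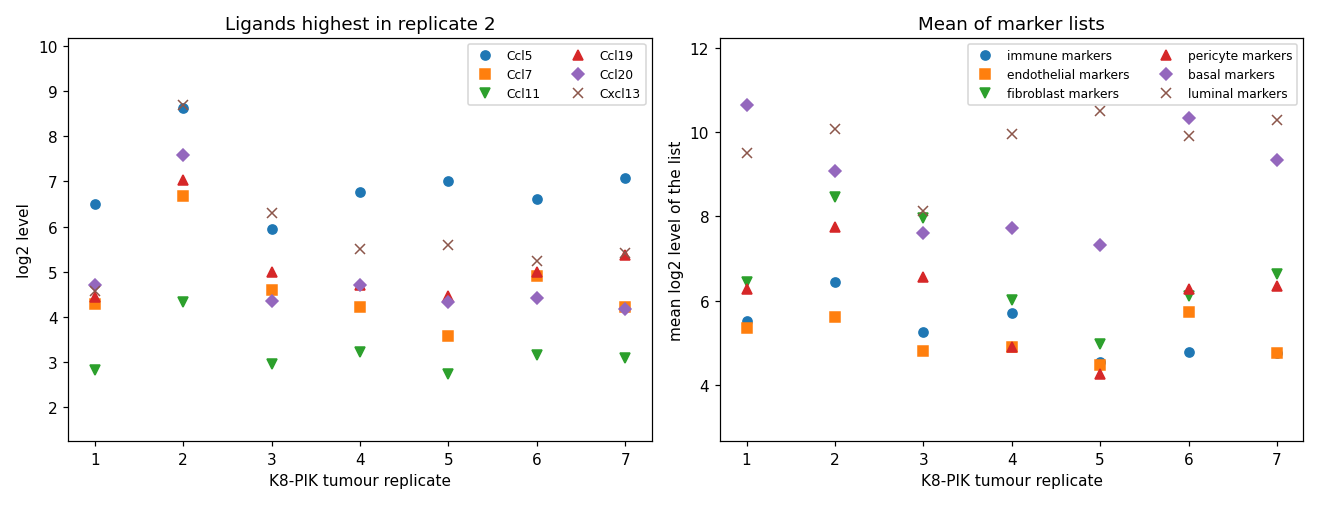
Left, log2 level (vertical axis) of Ccl5, Ccl7, Ccl11, Ccl19, Ccl20 and Cxcl13 in each of the 7 K8-PIK tumours (horizontal axis, replicate number), with a marker shape per gene; right, the mean log2 level of 6 marker lists in the same tumours. Replicate 2 is the highest tumour for all 6 genes and for the immune (6.45), fibroblast (8.46) and pericyte (7.76) lists.

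Genes related to chemokines but outside the naming rule are given beside the shares of all genes called between the YFP gates, 30.3% at 8 weeks and 43.4% at 10 months. Of 10 tested, 5 were lower and none higher in YFP basal than in YFP luminal cells at 8 weeks, and 5 were lower and 2 higher at 10 months. Cmtm8, a chemokine-like transmembrane protein, differed by -2.27 and -3.51 and Ccrl2, an atypical receptor that presents chemerin, by -1.07 and -2.10, while Pf4, a platelet chemokine, was higher at 10 months by 1.13. Ccl27a, a ligand of Ccr10, was higher in K5-PIK than in YFP basal cells by 0.95. Of 16 tested genes of receptor signalling and chemokine processing, 2 were higher and 4 lower in YFP basal cells at 8 weeks, and 4 and 3 at 10 months, near the shares of all genes. The matrix protease Mmp2, which cleaves several chemokines, was higher by 4.77 and 5.10, and Pik3cg, the PI3-kinase subunit downstream of chemokine receptors, was lower by -1.58 and -1.85.

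Inflammatory genes were called between the YFP gates about as often as all genes. Of the 20 tested NF-kB and acute inflammatory genes 2 were higher and 3 lower in YFP basal cells at 8 weeks, and 5 and 4 at 10 months, among them Il6 (1.50 and 2.92) on the basal side and Tnf (-1.40 and -2.44) on the luminal side. In K8-PIK-p53 tumours against normal luminal cells 3 were higher and 3 lower, beside 24.0% of all genes, with Ptgs2, the inducible prostaglandin synthase, at 4.23, the acute phase protein Saa3 at 3.02 and the neutrophil growth factor Csf3 at -2.18. Of 11 tested interferon-response genes 1 was higher and 1 lower in the same comparison, Irf1 at 0.87 and Irf9 at -1.05. In K8-PIK tumours, beside 10.6% of all genes, 3 of the 11 were higher, Irf1 (0.85), Irf7 (1.31) and Ifit3 (1.49), and in K5-PIK tumours against normal basal cells, beside 30.0% of all genes, 3 were higher, Irf7 (1.34), Mx1 (0.46) and the immunoproteasome subunit Psmb8 (2.02).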

How the data were processed

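The authors deposited log2 expression values of 45141 probe sets on 28 arrays. The submitters' processing notes name R 2.14.0, and the background correction and normalization are not given in the sources used here. Array medians were 4.40 to 4.50, so the values were used without further scaling. Of 29449 annotated probe sets 28898 had 1 gene symbol, and each gene was represented by its probe set of highest average level across arrays (16 of 47 chemokine genes had several). limma 3.58.1 in R 4.3.3 fitted 1 mean per group with empirical Bayes moderation to the 16 sorted arrays (8 groups, 13150 genes), to the 12 tumour arrays (3 groups, 13244 genes), or to all 28 arrays (11 groups, 13663 genes) for tumours against normal cells and the F-test. The scripts were tested on simulated data. Genes called in a comparison were named up to the 10 with the largest difference, with a set of further ligands and receptors whatever their result. The chemokine genes and the gene lists were chosen with earlier results of these data known. Alternatives were other fits, filters, probe set rules and priors, quantile normalization, a replicate block, marker means as covariates and leaving out arrays. The number of arrays limits the precision, and no scan date or batch stands in the labels.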

Additional observations from a re-analysis of the deposited data

Results flagged for a closer look

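In K8-PIK tumours (7 arrays) the highest array stood apart from the others for 6 of 36 chemokine genes by Dixon's test. The test flags about 1 group in 20 by chance when values are normally distributed. It was not run over all genes, so the share over all genes is not known. The array was replicate 2 each time: 4.32 for Ccl11, 7.03 for Ccl19, 7.59 for Ccl20, 8.62 for Ccl5, 6.69 for Ccl7 and 8.69 for Cxcl13. These genes come from 1 tumour, so the 6 are not independent.

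The basal minus luminal difference at 10 months differed between K5-PIK and YFP cells, tested by an interaction term, for Ccl7 (1.88) and Ccl19 (0.86). Of 17 alternative fits, 14 kept the call of Ccl7 and 5 that of Ccl19. The changes of tumours from the normal cells of each origin differed for Cxcl12 (-6.58), Cxcl14 (-4.88), Ackr4 (-4.20), Ackr3 (-3.49), Cxcl15 (4.76) and Cxcl17 (4.92), also by an interaction term. The normal basal against luminal difference of these genes enters the values in full, and no gene was called between K5-PIK and K8-PIK tumours.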

How the results depend on the processing

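Counts of called chemokine genes kept within 1.5 times in all 19 results without the filter on dim genes, with the mean of all probe sets and with a trended robust prior. In the fit on all 28 arrays the counts were 0 in place of 4 for K5-PIK against YFP basal cells, 2 in place of 7 for the K8-PIK gates, 6 in place of 12 for the K5-PIK gates, 0 in place of 1 for K5-PIK against YFP luminal cells and for age in YFP basal cells, 2 in place of 0 for K8-PIK-p53 against K8-PIK tumours, and 0 in place of 2 for the interaction at 10 months. Quantile normalization gave 2 for age in YFP basal cells. With the immune mean as a covariate K8-PIK tumours against normal luminal cells had 1, K8-PIK-p53 tumours against normal luminal cells 4 and the interaction at 10 months 1. With the fibroblast mean these had 0, 2 and 1, and age in YFP basal cells 0. With the endothelial mean K5-PIK against YFP basal cells had 2, K8-PIK-p53 against K8-PIK tumours 1 and the interaction at 10 months 1. The fibroblast and endothelial means and leaving out single K8-PIK tumours were chosen after seeing the data. The cause of these moves was not tested. Leaving out 1 array gave 0 to 1 for K8-PIK against YFP luminal cells, 1 to 5 for K5-PIK against YFP basal cells, 4 to 6 for the K8-PIK gates, 0 to 2 for K5-PIK against YFP luminal cells, 0 for age in YFP basal cells, 0 to 1 for K8-PIK-p53 against K8-PIK tumours, 0 to 8 for K8-PIK tumours and 5 to 7 for K8-PIK-p53 tumours against normal luminal cells, and 0 to 3 for the interaction at 10 months. The replicate block gave 13 in place of 5 for K8-PIK tumours against normal luminal cells and 4 in place of 2 for the interaction at 10 months, and left the other 17 counts within 1.5 times. Under the block Cxcl2 was called in K5-PIK against YFP basal cells (adjusted p = 0.0262), Cxcl14 in the interaction at 10 months (adjusted p = 0.0484) and Cxcl12 in K8-PIK tumours against normal luminal cells (3.01, adjusted p = 0.00425), while Ackr3 in the last comparison (adjusted p = 0.0559) and Cxcl9 in K5-PIK tumours against normal basal cells (adjusted p = 0.0696) lost their calls. Deviations of same-numbered arrays correlated at -0.244 to 0.380, with 0.338 between the K5-PIK gates and the highest value between the YFP basal groups. The labels tie the numbers to no mouse, so they were not taken as pairs. Of 70 called gene results 30 kept their call in every alternative, and of 1048 refits 863 kept the call, 185 lost it and 0 turned its direction. Where 1 array of 2 was left out, the other was assumed to vary like the other groups. Groups of 2 arrays limit every comparison of sorted cells.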
